A study of Mus musculus with 29 samples.

Results

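Loss of RNase T2, an enzyme that degrades RNA in the endosomes and lysosomes, was compared with its presence in the Ly6C-low macrophages of the mouse liver. The comparison set 3 libraries from Rnaset2-/- mice, which lack both Rnaset2a and Rnaset2b, against 3 libraries from wild-type mice. All mice were of the C57BL/6 background and untreated, and the cells were sequenced directly after sorting. The labels give the same gate for both genotypes, namely Ly6C-low, CD11b-positive and Fcgr4-positive cells that lacked Ly6G, SiglecF and NK1.1. The methods describe the wild-type hepatic macrophages by F4/80 and CD11b alone and add Ly6C and CD16.2 for the Rnaset2-/- cells. The genes of the gated proteins, which are Fcgr4 (CD16.2), Itgam (CD11b), Adgre1 (F4/80) and Bst2 (CD317), are therefore no independent readout of the cells. Of these, Fcgr4 and Adgre1 rose, Itgam fell and Bst2 overlapped between genotypes. The deficiency was present in every cell of the animal, so the blood monocytes and the liver around the macrophages also lacked the enzyme. Ages and sexes of the animals behind these libraries are not given in the sources used here. Nor do these sources say whether each library came from a separate animal, so the p-values measure the spread between libraries.

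Kupffer cells are the resident macrophages of the liver sinusoids, where they take up bacteria, dying cells and aged red cells. Monocytes that enter an emptied niche take on the same gene program under signals from the endothelium, stellate cells and hepatocytes, among them Notch ligands, TGF-beta family members and oxysterols that act on the nuclear receptor LXR-alpha, the product of Nr1h3. Ly6C-low monocytes patrol the vessel wall and depend on Nr4a1, whereas Ly6C-high monocytes enter tissue through Ccr2. The expression of each program was read here in the Ly6C-low gate, and 4 libraries of wild-type Kupffer cells were used as a reference level only.

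Transcripts were measured with the Ion AmpliSeq Transcriptome Mouse kit, which amplifies 1 short target for each gene, and are given as RPM, that is reads scaled to a library total of 1000000. Amplicons differ in yield, so a level is compared between libraries and not between genes. Of the 23930 genes in the table, 10808 reached 1 RPM in 3 or more of the 6 libraries and were tested, and the 10396 on autosomes are the genes described here. A gene was said to rise or fall where limma gave a change of more than 1.5-fold with an adjusted p below 0.05. The log2 fold changes (Rnaset2-/- over wild-type, ± SE) are on the scale of log2(scaled RPM + 1), which understates changes at low levels.

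The wild-type libraries held 11175843 to 12081069 reads and the Rnaset2-/- libraries 12850522 to 13060965, so that the floor of 3 reads was 0.230 to 0.268 RPM. This floor covers counting error only. The Rnaset2-/- libraries had 0 RPM of Xist and a sum of 199 to 291 RPM over the Y-linked genes of the table, whereas the wild-type libraries had 375 to 508 RPM of Xist and a Y-linked sum of 0, 52.0 and 52.0 RPM. Wild-type replicates 2 and 3 thus carried both Xist and Y-linked reads, and the sources do not say whether animals were pooled. Genotype and sex therefore cannot be told apart in this comparison, and genes on the sex chromosomes were left out. Rnaset2-/- replicate 1 stood apart from the other two, with 81 genes over 5 times higher (plus 5 RPM) than in both of them and 5 genes lower by the same measure, against 0 and 1 for replicate 2 and 32 and 0 for replicate 3. In the wild-type libraries, replicate 1 was below both others for 20 genes, and no replicate was above both others for more than 1 gene. Values of each Rnaset2-/- library are given in the order of replicates 1, 2 and 3.

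RNase T2 deficiency was accompanied by a change in a large part of the transcriptome. Of the 10396 genes, 2125 (20.4%) rose and 2313 (22.2%) fell, which together is 42.7% of the genes. These shares of all genes are the reference for the counts of each list. The libraries of the genotypes did not overlap, with Rnaset2-/- above, for 29.4% of genes and, with Rnaset2-/- below, for 26.9%. The median log2 fold change was 0.02, and the 10th and 90th percentiles were -1.48 and 1.19. Leaving out wild-type replicate 3 gave 1529 genes that rose and 1449 that fell. A rise of more than 8-fold was found for 116 genes and a fall of more than 8-fold for 219. Only wild-type cells had reads of 64 genes and only Rnaset2-/- cells had reads of 10. Over the whole table, wild-type libraries had reads of 15607 to 16265 genes and Rnaset2-/- libraries of 13305 to 13591, although the latter held more reads. The part of this difference in the counts at low levels was not tested. The share of genes that rose was 12.6% among genes under 10 RPM in the genotype with the higher mean and 29.3% among those of 100 to 1000 RPM. The share that fell was 22.1% and 23.2% in the same bands and reached 36.9% of the 176 genes over 1000 RPM. The changes were spread over the autosomes, with 15.0% (chromosome 18) to 23.3% (chromosome 16) of genes higher and 18.2% (chromosome 4) to 28.1% (chromosome 13) lower.

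**Figure D1:**
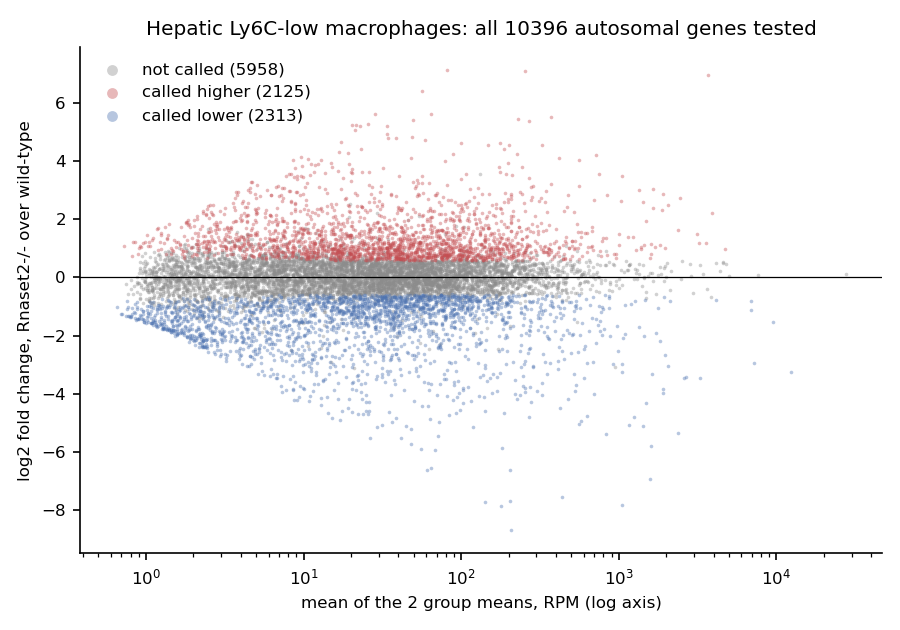
Each point is 1 autosomal gene, with the mean of both group means in RPM on a log axis and the log2 fold change of Rnaset2-/- over wild-type on the vertical axis. The 2125 genes called higher are red, the 2313 called lower are blue and the others grey.

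The gene that rose most was Lipg, which encodes endothelial lipase, a secreted phospholipase of high-density lipoproteins. It had no read in any wild-type library and 74.8, 264 and 146 RPM in the Rnaset2-/- libraries. Fcrl5, an Fc receptor-like protein best known from B cells, rose from 1.90 to 2.50 RPM to 255, 818 and 450 RPM (log2 fold change 7.10 ± 0.37, adjusted p = 1.3e-05 by limma). Cd5l, which encodes a secreted scavenger protein of tissue macrophages and is a target of LXR-alpha, rose from 46.6, 47.0 and 70.7 RPM in wild-type cells to 9639, 6753 and 5478 RPM (6.98 ± 0.26, adjusted p = 2.4e-06 by limma). In each of these genes the lowest Rnaset2-/- library was far above the highest wild-type library. A lack of overlap was a condition for choosing these genes.

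The promoter of Fcrl5 is shown because this gene rose in all populations described here. The sequence is the RefSeq promoter window of the build GRCm38.p6, from 250 bases before to 50 after the annotated start, on the plus strand at chr3:87435532-87435831, and the capitals mark the single match to the AP-1 letters TGANTCA.

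Fcrl5: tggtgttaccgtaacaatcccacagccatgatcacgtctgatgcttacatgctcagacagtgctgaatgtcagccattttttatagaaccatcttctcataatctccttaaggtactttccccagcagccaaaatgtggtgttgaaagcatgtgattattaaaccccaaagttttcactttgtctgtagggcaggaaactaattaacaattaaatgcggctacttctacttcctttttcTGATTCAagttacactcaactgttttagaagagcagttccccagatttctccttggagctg

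The other genes at the top of the list were Tmc3, Raver2, C6, Adamdec1, Ptprm, Lox, Hebp1, Ociad2 and Hs3st2, with log2 fold changes of 5.25 to 6.42. Adamdec1 encodes a secreted metalloprotease of maturing macrophages and rose from 9.67 to 15.9 RPM in wild-type cells to 299, 1238 and 662 RPM. Hebp1, the source of a peptide that binds formyl peptide receptors, rose from 5.96 to 16.9 RPM to 496, 532 and 556 RPM. Lox, which encodes the collagen cross-linking enzyme lysyl oxidase, rose from under 1 RPM to 21.7, 163 and 111 RPM. Hs3st2, a heparan sulfate sulfotransferase gene, was read in no wild-type library and had 23.7, 62.1 and 36.1 RPM. Replicate 1 was the lowest Rnaset2-/- library for Lipg, Fcrl5, Adamdec1 and Lox and the highest for Cd5l and C6.

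Retnla, which encodes the resistin-like protein FIZZ1 of alternatively activated macrophages, fell most. It had 418, 389 and 431 RPM in wild-type cells and no read in any Rnaset2-/- library, which is at least 1784-fold lower by the floor of 3 reads. Serpinb10, an intracellular protease inhibitor of myeloid cells, fell from 374, 369 and 327 RPM to under 1 RPM (-7.88 ± 0.21, adjusted p = 5.5e-07 by limma). The nuclear long noncoding RNA Neat1 fell from 2901, 1864 and 1494 RPM to 9.16, 7.08 and 7.89 RPM. Cd83, which marks activated antigen-presenting cells, fell from 477, 1496 and 645 RPM to 2.62, 3.04 and 4.06 RPM. Cxcr4, the receptor that holds leukocytes in the bone marrow through CXCL12, fell from 2625, 3791 and 3039 RPM to 28.6, 18.8 and 28.9 RPM. The others of the 12 that fell most were Fosb, Cxcl2, Trem1, Alox15, Cd209a, Ccl22 and G0s2, with changes of -7.72 to -5.91. Every Rnaset2-/- library was below every wild-type library for all 12, which was a condition of their choice. The reverse was a condition for the 12 that rose most.

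**Figure D2:**
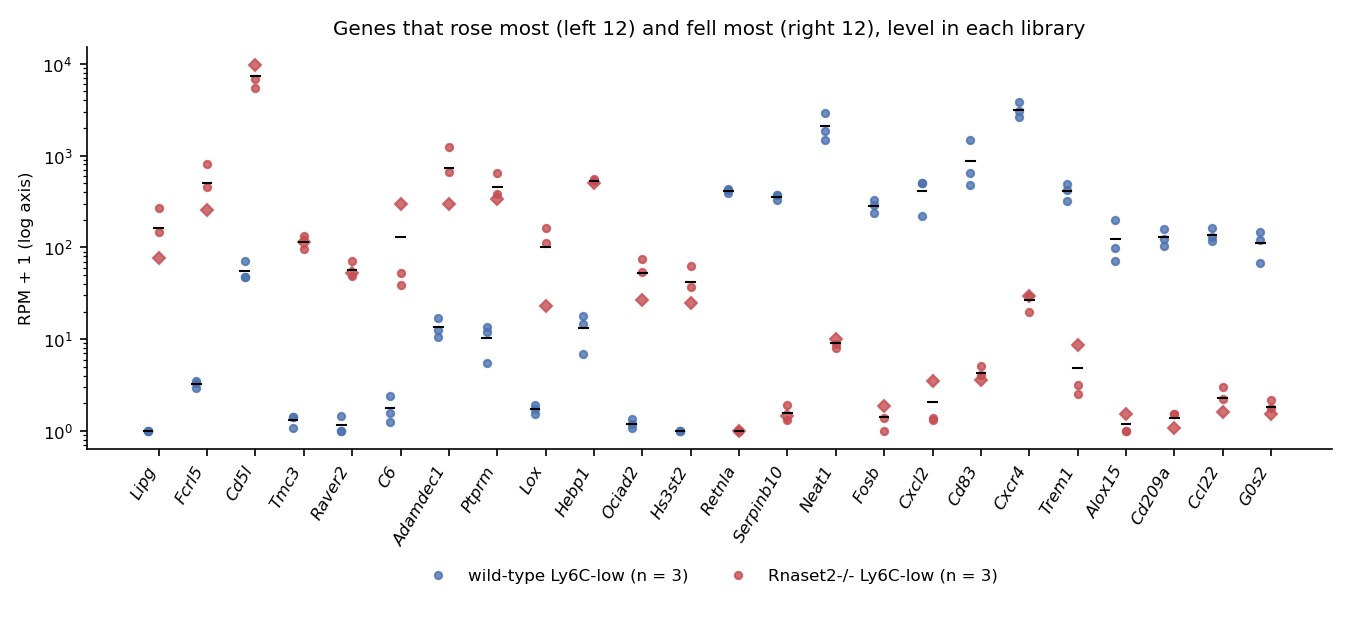
Levels of 12 genes with the largest rise and 12 with the largest fall are shown for each library as RPM + 1 on a log axis, with wild-type in blue, Rnaset2-/- in red (replicate 1 as a diamond) and short black lines at the mean. Genes were picked among those whose libraries did not overlap, so the colours do not overlap for any of the 24.

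The genes that mark Kupffer cells rose as a group, but to different degrees. Of the 25 genes on this list, 17 rose and 3 fell, with a median log2 fold change of 3.54, against 20.4% and 22.2% of all genes and a median of 0.02. Without Rnaset2-/- replicate 1, 14 of 21 tested genes rose and the median was 1.98, and without Rnaset2-/- replicate 3 it was 11 of 21 with a median of 2.70. Besides Cd5l, the genes C6, Pcolce2, Kcna2, Slc16a9 and Cd38 rose most. Cd38, a membrane enzyme that hydrolyses NAD, rose from 6.80 to 16.6 RPM to 414, 269 and 170 RPM (4.55 ± 0.38). Slc16a9, a monocarboxylate transporter, was below 1 RPM in wild-type cells and had 61.6, 41.6 and 23.3 RPM in Rnaset2-/- cells. Clec1b, the receptor for podoplanin, rose from 25.1 to 31.5 RPM to 294, 402 and 680 RPM.

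Set beside wild-type Kupffer cells, the Rnaset2-/- cells fell into 3 classes of these genes. The mean of 10 of the 25 genes lay within the range of the 4 Kupffer cell libraries, the mean of 11 lay below it and that of 4 above it. Among all 10396 genes, 29.8% were within the range, 51.4% below and 18.8% above. Above the Kupffer cell range were Cd207, Cd38, Spic and Nr1h3, and Nr1h3 was at 796 RPM against 247 RPM. Within it was Cd5l, with a mean of 7290 RPM against 6345 RPM. Well below it were the defining Kupffer cell markers. Clec4f, the Kupffer cell lectin, had 63.3, 17.7 and 53.1 RPM, which was a mean of 1.06% of the Kupffer cell level (1674 RPM in the lowest of 4 libraries), although it rose from 4.01 to 15.1 RPM in wild-type Ly6C-low cells. Timd4, the phosphatidylserine receptor of embryo-derived Kupffer cells, had 66.8, 10.04 and 13.02 RPM against 365 RPM, and Folr2 had a mean of 2.79% of the Kupffer cell level. Cd163, the receptor for haptoglobin bound to hemoglobin, fell from 5.19 to 8.61 RPM to 3.54, 0.156 and 1.30 RPM, or 0.364% of the Kupffer cell level. Of the 116 genes that rose more than 8-fold, 82 had a mean above the Kupffer cell range, 20 within it and 14 below it. Of the 219 that fell more than 8-fold, 168 were below it, 35 within it and 16 above it. Both sets were chosen by their Rnaset2-/- level, which favours these sides. The Kupffer cell libraries share no library with the Rnaset2-/- group. They had 647 to 949 RPM of Xist and a Y-linked sum of 0, so sex, genotype and gate cannot be told apart here. The Rnaset2-/- mean as a share of the Kupffer cell mean ranged from 0.364% for Cd163 to 322% for Nr1h3. Kupffer cell libraries also held markers of other cells. Summed hepatocyte markers had 1777 to 5723 RPM against 14.4 to 90.9 RPM in Rnaset2-/- libraries. Endothelial sums were 4787 to 10430 against 1878 to 4965 RPM, and conventional dendritic cell sums 1529 to 2201 against 1693 to 3715 RPM. Cdh5, at 20.2% of the Kupffer cell level, is on both the endothelial and the Kupffer cell lists. The part of other cells in these classes was not tested.

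**Figure D3:**
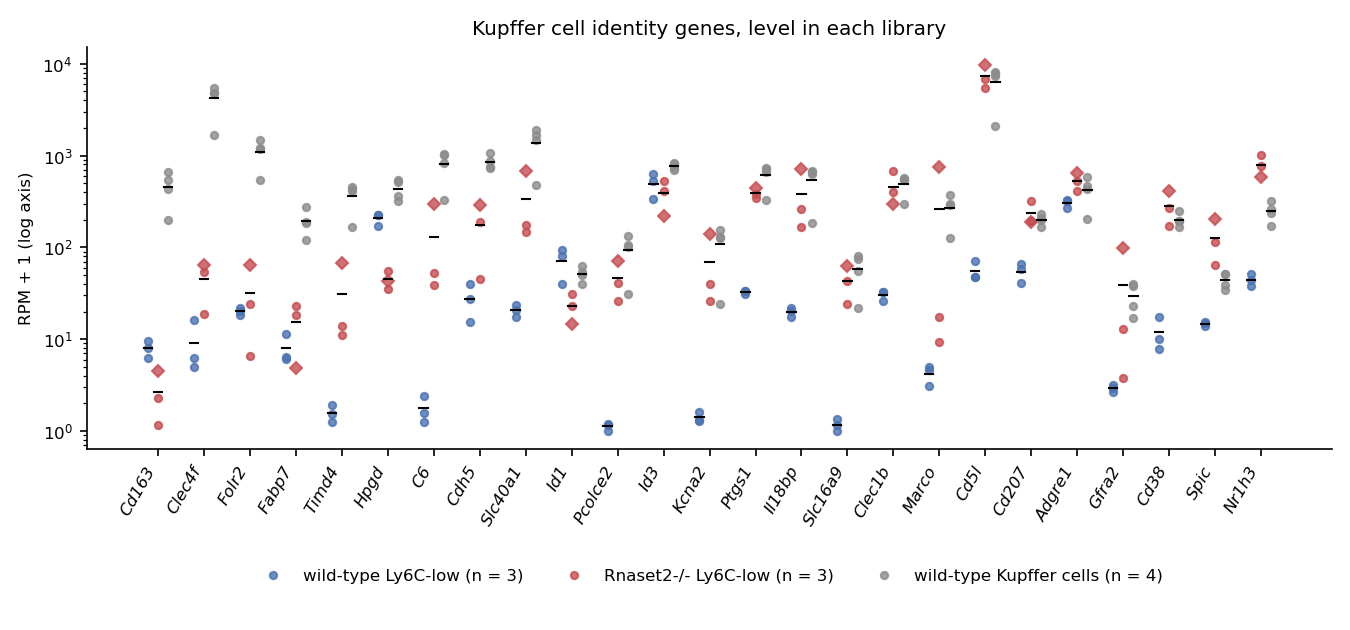
Levels of the 25 Kupffer cell identity genes are shown for each library as RPM + 1 on a log axis, ordered by the mean of Rnaset2-/- cells as a percentage of Kupffer cells, with wild-type Ly6C-low cells in blue, Rnaset2-/- Ly6C-low cells in red (replicate 1 as a diamond) and wild-type Kupffer cells in grey. At the left, Cd163, Clec4f and Folr2 of Rnaset2-/- cells lie far below Kupffer cells, and at the right Spic and Nr1h3 lie above them.

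Marco, a scavenger receptor for bacteria, was not among the genes that rose, since 758 RPM in replicate 1 stood against 8.33 and 16.3 RPM in the others and 2.07 to 3.92 RPM in wild-type cells (3.55 ± 1.41, adjusted p = 0.07 by limma). It passed without Rnaset2-/- replicate 1 (1.60, adjusted p = 0.0083 by limma) or 2 (4.80, adjusted p = 0.031 by limma). It also passed in edgeR (6.26, adjusted p = 0.022) and with all 29 libraries in 1 fit (3.58, adjusted p = 0.0057 by limma). Replicate 1 was also the highest for C6 (294 against 37.7 and 51.8 RPM), Timd4 and Slc40a1 (678 against 175 and 146 RPM), each of which was still higher in every Rnaset2-/- library than in every wild-type library.

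LXR-alpha and several of its targets rose together. Of 19 tested genes of the LXR list, 10 rose and 3 fell (1 without wild-type replicate 2 or 3), with a median of 0.69. For all genes these shares were 20.4% and 22.2%, with a median of 0.02. Nr1h3 rose from 42.6, 50.6 and 36.5 RPM to 589, 1024 and 773 RPM (4.11 ± 0.23, adjusted p = 1.6e-05 by limma). Rxra, which encodes the partner in the LXR heterodimer, rose from 107, 183 and 142 RPM to 836, 671 and 877 RPM (2.44 ± 0.24). The targets Lpl, the lipoprotein lipase, and Pltp, the phospholipid transfer protein, rose by 3.16 ± 0.27 and 2.39 ± 0.34 on the log2 scale. Abca1, the cholesterol exporter, had 230, 92.7 and 81.8 RPM against 45.1 to 71.5 RPM and did not pass the test (0.93 ± 0.39, adjusted p = 0.085 by limma). Mylip, which promotes breakdown of the LDL receptor, had 67.4 to 99.1 RPM against 55.5 to 92.1 RPM, so that the genotypes overlapped. A perfect LXR direct repeat, which is AGGTCA repeated after 4 bases, occurred in 0 of the 8021 promoter windows of 300 bases available for these genes, so promoters gave no description of this group.

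Genes of sterol synthesis and uptake did not move as one. Of 21 tested, 4 rose (2 without Rnaset2-/- replicate 2) and 6 fell (median -0.36), shares near those of all genes. The feedback regulator gene Insig1 fell from 86.3 to 135 RPM to 39.6, 47.0 and 38.8 RPM. Srebf2, which encodes the transcription factor of the same pathway, rose by 1.08 ± 0.25, and Dhcr7 by 1.16 ± 0.27. Among 18 genes of lipases and lipid handling, 5 rose and 4 fell, also near the shares of all genes. Lipa, the lysosomal acid lipase, rose from 60.5 to 170 RPM to 561, 598 and 557 RPM. In the opposite direction, Cd36, the fatty acid and oxidized lipoprotein receptor, fell from 421, 429 and 388 RPM to 30.8, 15.4 and 33.2 RPM (-4.02 ± 0.29, adjusted p = 4e-05 by limma), and the lipid droplet protein gene Plin2 fell by 1.43 on the log2 scale.

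Receptors and bridges for the uptake of dying cells formed a list of 16 tested genes. Of these, 7 rose, Cd36 fell and 8 did not pass the test, against 20.4% of all genes that rose and 22.2% that fell. The receptor kinase genes Mertk and Axl rose from 15.2 to 21.8 RPM to 196, 117 and 68.8 RPM and from 87.9 to 107 RPM to 359, 353 and 237 RPM. Tgm2, a transglutaminase that aids engulfment, rose from 532 to 837 RPM to 1711, 1735 and 1938 RPM, and the integrin gene Itgb5 rose by 1.59 ± 0.18. In the complement list of 13 genes, 5 rose and 3 fell, against 20.4% and 22.2% of all genes. The number that rose was 3 without Rnaset2-/- replicate 3, wild-type replicate 1 or wild-type replicate 2. C1qb, a chain of the first component, rose from 433, 761 and 690 RPM to 4025, 4530 and 4145 RPM (2.75 ± 0.26, adjusted p = 0.00013 by limma) and C1qc from 2.42 to 4.10 RPM to 15.6, 15.8 and 12.7 RPM. C5ar1, the receptor for the anaphylatoxin C5a, fell to 27.6, 0.934 and 0.995 RPM from 42.1 to 57.3 RPM. C3 was at 1510 RPM in replicate 1 and at 56.9 and 70.7 RPM in the others, and it did not pass the test with replicate 1 but fell without it (-3.05, adjusted p = 6.4e-05 by limma). The call of C5ar1 was lost in edgeR (adjusted p = 0.12) and without Rnaset2-/- replicate 2 or 3 or wild-type replicate 2 or 3. Of 13 scavenger receptors, 3 rose (5 without Rnaset2-/- replicate 2) and 3 fell (1 without wild-type replicate 2), shares near those of all genes. Scarb1 and Lrp1 were higher by 1.51 ± 0.20 and 1.03 ± 0.25 on the log2 scale.

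Of 16 genes of heme and iron recycling, the work of macrophages that clear red cells, 8 rose and 3 fell (6 fell without replicate 1). The shares of all genes were 20.4% and 22.2%. Spic, the transcription factor of red pulp macrophages, rose from 12.9 to 14.3 RPM to 203, 114 and 62.6 RPM. The iron exporter gene Slc40a1 rose from 16.3 to 22.7 RPM (3.63 ± 0.51), and the ferroxidase gene Cp rose from 7.32 to 11.8 RPM to 81.4, 106 and 92.4 RPM. The biliverdin reductase genes Blvra and Blvrb and the iron importer gene Slc11a2 rose by 2.15 to 2.21 on the log2 scale. Hmox1, which encodes the enzyme that opens the heme ring, had 1528, 930 and 770 RPM against 299 to 748 RPM, above every wild-type library but short of the threshold (0.90 ± 0.40, adjusted p = 0.1 by limma).

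Genes of circulating monocytes were read as a pair of lists, beside shares of 20.4% higher and 22.2% lower among all genes. Of 12 tested genes of classical Ly6C-high monocytes, 9 fell and 0 rose (median -2.50, and 8 of 11 without replicate 1). Fn1, the fibronectin gene, fell from 221 to 461 RPM to 6.62, 4.51 and 4.29 RPM (-5.86 ± 0.31). Ccr2, the receptor through which monocytes leave the marrow, fell from 142 to 219 RPM to 43.3, 8.56 and 6.28 RPM, and the lysozyme gene Lyz2 fell from 9536 to 14162 RPM to 5940, 777 and 832 RPM. Of 17 genes of patrolling Ly6C-low monocytes, 8 fell and 3 rose, with a median of -0.05 (5 rose and the median was 0.07 without Rnaset2-/- replicate 1). Nr4a1, the nuclear receptor these cells depend on, fell from 5025, 6375 and 6413 RPM to 310, 1008 and 549 RPM (-3.45 ± 0.39, adjusted p = 0.0003 by limma). It is also counted among the lineage transcription factors. Ace, the angiotensin-converting enzyme gene, fell from 459 to 607 RPM to 47.6, 14.9 and 7.58 RPM. Pglyrp1, Eno3, Klf2 and Cx3cr1 fell by 4.09, 2.96, 2.91 and 2.15 on the log2 scale. Fcgr4, a gate gene, rose from 398 to 501 RPM to 2577, 4451 and 3118 RPM.

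Fewer transcription factors of macrophage and monocyte lineages were higher than lower, with 3 of 29 higher and 14 lower (median -0.52). The shares among all genes were 20.4% and 22.2%. Klf4, Runx3, Nr4a3 and Bhlhe40 fell, with log2 fold changes of -4.27 to -3.71, and Klf4 had 440, 357 and 484 RPM in wild-type cells and 22.7, 31.0 and 17.2 RPM in Rnaset2-/- cells. Spi1, which encodes the myeloid master regulator PU.1, had 961 to 1563 RPM against 1163 to 1529 RPM, and the genotypes overlapped. Of 19 genes of Notch and TGF-beta niche signaling, 4 rose and 5 fell, shares near those of all genes. The Notch target Hes1 fell from 258 to 393 RPM to 31.1, 64.2 and 39.2 RPM, the ligand gene Jag1 fell by 3.41 and the receptor gene Notch1 by 1.88 on the log2 scale. The BMP receptor gene Acvrl1 rose from 19.9 to 21.6 RPM to 136, 129 and 73.9 RPM, and the inhibitory Smad6 rose from 2.48 to 4.01 RPM to 13.2, 29.2 and 25.1 RPM.

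**Figure D4:**
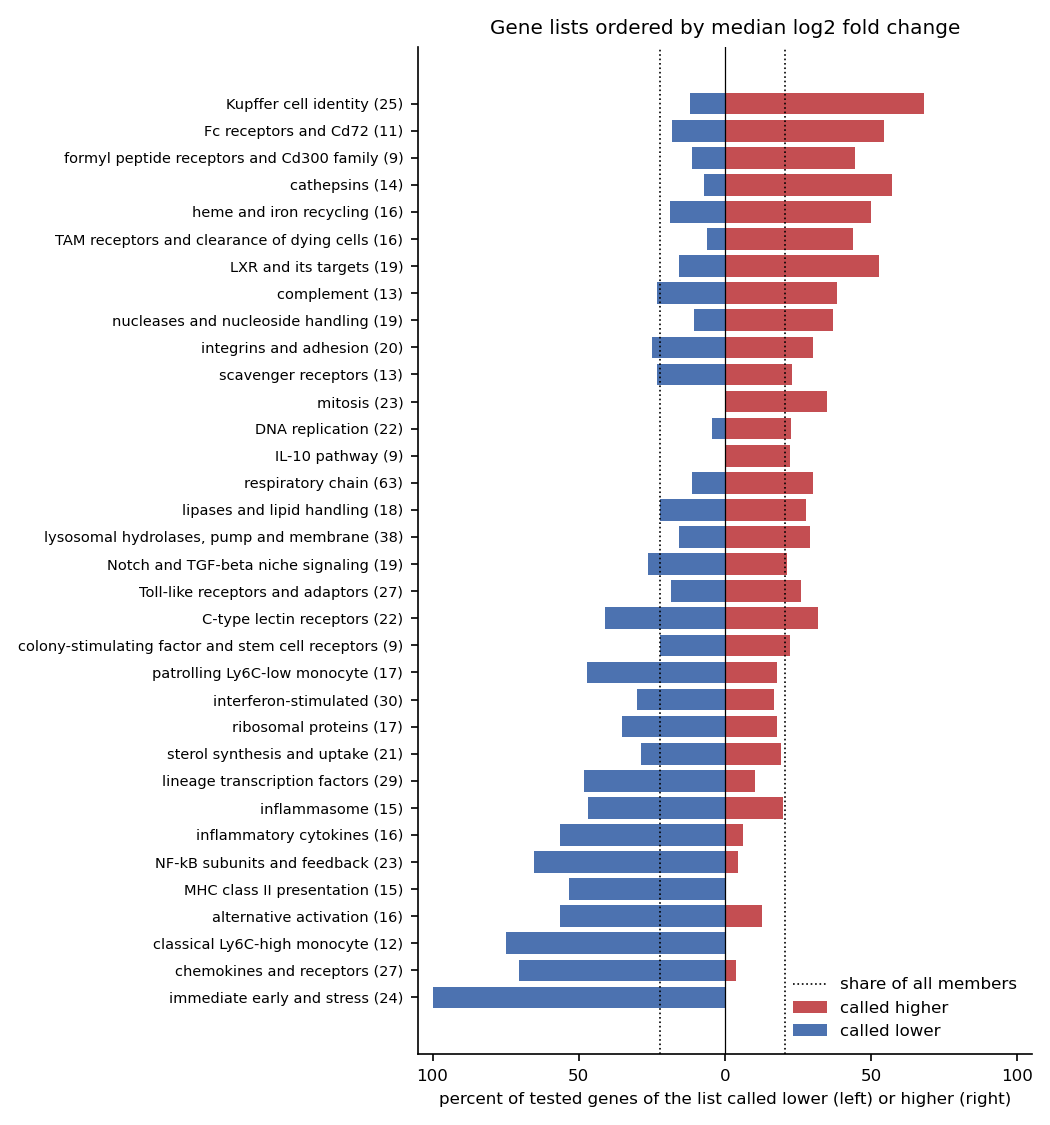
Bars give the percentage of the tested genes of each list that rose (red, right) or fell (blue, left) in Rnaset2-/- cells, with the number tested in parentheses and the lists ordered by median log2 fold change. Dotted lines mark the shares of all genes, 20.4% higher and 22.2% lower, and Kupffer cell identity is at the top with 17 of 25 higher while immediate early and stress genes are at the foot with 24 of 24 lower.

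The enzyme that was lost acts in the lysosome, so genes of that compartment were read as a group. Of 14 cathepsins, 8 rose and 1 fell (median 1.03). Ctsd, the aspartic protease, rose from 1096, 1417 and 1468 RPM to 8372, 5185 and 5974 RPM (2.23 ± 0.27, adjusted p = 0.00039 by limma), and Ctsb rose from 2097 to 2175 RPM to 5044, 5135 and 4964 RPM. Ctss, the protease of antigen presentation, overlapped between genotypes at 1854 to 2037 and 1360 to 2372 RPM. Of 38 lysosomal hydrolases, pump subunits and membrane proteins, 11 rose and 6 fell (median 0.21), and 3 of 37 fell without wild-type replicate 3. Among all genes, 20.4% rose and 22.2% fell. Grn, the progranulin gene, rose from 579 to 636 RPM to 3755, 2880 and 2783 RPM. Psap, which encodes the precursor of the saposins, and the membrane protein gene Laptm5 did not pass the test. Without Rnaset2-/- replicate 1, Psap fell (-0.745, adjusted p = 0.017 by limma).

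Nucleases and proteins that move nucleosides are the neighbors of RNase T2 in this pathway. Of 19 tested genes, 7 rose and 2 fell (median 0.63), against 20.4% and 22.2% of all genes. Rnaset2a and Rnaset2b were not analysed here. Rnase6, another ribonuclease of the lysosome, fell from 648, 407 and 449 RPM to 75.9, 21.2 and 27.9 RPM (-3.79 ± 0.43, adjusted p = 0.0003 by limma). The exonuclease gene Pld3 rose from 16.3 to 25.5 RPM to 184, 126 and 144 RPM. The lysosomal acid phosphatase genes Acp5 and Acp2 rose from 208 to 334 RPM to 1498, 2524 and 3153 RPM and from 67.0 to 73.9 RPM to 512, 535 and 396 RPM. Slc15a3, a transporter of the endolysosomal membrane, rose by 2.75 ± 0.30, and Slc29a1, the plasma membrane nucleoside transporter, by 2.35 ± 0.25.

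Toll-like receptors and their adaptors, some of which read RNA in the endosome, moved in both directions. Of 27 tested genes, 7 rose and 5 fell, shares near those of all genes. Unc93b1, the chaperone of the endosomal receptors, rose from 1100, 1268 and 967 RPM to 3042, 3314 and 4488 RPM (1.65 ± 0.24, adjusted p = 0.001 by limma). Tlr3, the receptor for double-stranded RNA, rose from 3.31 to 12.7 RPM to 24.4, 30.7 and 39.7 RPM, and Tlr4 from 69.9 to 93.0 RPM to 267, 216 and 248 RPM. Irak3, which encodes the inhibitory kinase of this family, rose from 111 to 131 RPM to 443, 439 and 444 RPM. Tlr2, a receptor for bacterial lipoproteins, fell from 48.9 to 59.3 RPM to 13.4, 10.4 and 9.49 RPM. Tlr13, the receptor for bacterial ribosomal RNA, is on the X chromosome and outside the genes counted here, and it had 56.3, 62.6 and 33.9 RPM against 27.8 to 54.1 RPM, so that the genotypes overlapped.

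The immediate early and stress genes, which many stimuli switch on within minutes, were lower throughout. All 24 tested genes of this list fell, with a median of -3.63, and all 24 also fell without replicate 1. Their summed level was 1695 to 2103 RPM in Rnaset2-/- cells, 24990 to 37300 RPM in wild-type Ly6C-low cells and 2716 to 4025 RPM in wild-type Kupffer cells. The sources do not say whether wild-type and Rnaset2-/- livers were prepared together. Handling and genotype therefore cannot be told apart, and the part of handling in these changes was not tested. This limit holds for every comparison of the hepatic genotypes. Fosb, a subunit of AP-1, fell from 235, 328 and 288 RPM to 0.847, 0.389 and 0 RPM. Its partners Fos and Jun fell from 3073, 5137 and 5788 RPM to 78.1, 140 and 129 RPM and from 2244 to 3303 RPM to 89.8, 57.3 and 99.7 RPM. The transcription factor gene Egr1 fell from 2756, 3306 and 3341 RPM to 53.3, 51.8 and 66.5 RPM (-5.79 ± 0.19, adjusted p = 2.1e-06 by limma). The heat shock genes Hspa1a and Hspa1b, neighbors of almost the same sequence whose reads may be shared, fell from 1189 to 2082 RPM to 34.4, 40.2 and 39.0 RPM and from 1500 to 2630 RPM to 73.3, 74.4 and 51.1 RPM.

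The promoters of Fosb, Hspa1a and Cxcl2 are shown because genes of 3 inducible groups fell together. They are RefSeq windows of GRCm38.p6 from 250 bases before to 50 after the start, with Fosb at chr7:19309996-19310295 on the minus strand, Hspa1a at chr17:34972107-34972406 on the minus strand and Cxcl2 at chr5:90903649-90903948 on the plus strand. The capitals mark the match to the CRE core TGACG in Fosb, to the heat shock element core GAANNTTC in Hspa1a and to the NF-kB letters, GGGA and TTTCC with 1 base between them, in Cxcl2.

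Fosb: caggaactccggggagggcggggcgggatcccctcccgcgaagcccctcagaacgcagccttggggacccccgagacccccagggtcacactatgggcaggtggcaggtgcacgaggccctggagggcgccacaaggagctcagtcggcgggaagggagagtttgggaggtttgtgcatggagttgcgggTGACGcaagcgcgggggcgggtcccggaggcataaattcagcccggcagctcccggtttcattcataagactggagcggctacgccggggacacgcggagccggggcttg

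Hspa1a: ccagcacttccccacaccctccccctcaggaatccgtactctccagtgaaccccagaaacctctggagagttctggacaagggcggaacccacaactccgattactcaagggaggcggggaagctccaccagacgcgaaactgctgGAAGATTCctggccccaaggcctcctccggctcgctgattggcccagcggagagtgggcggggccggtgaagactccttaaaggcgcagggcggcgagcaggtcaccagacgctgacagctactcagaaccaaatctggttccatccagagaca

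Cxcl2: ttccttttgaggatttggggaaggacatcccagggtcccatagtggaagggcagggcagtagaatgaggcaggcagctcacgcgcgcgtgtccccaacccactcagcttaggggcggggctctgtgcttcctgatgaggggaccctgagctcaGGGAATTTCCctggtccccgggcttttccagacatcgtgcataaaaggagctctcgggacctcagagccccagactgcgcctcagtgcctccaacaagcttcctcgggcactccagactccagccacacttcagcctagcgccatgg

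Counted on both strands, the NF-kB letters occurred in 37 of the 8021 available promoter windows (0.461%). They occurred in 4 of 19 windows of chemokine and chemokine receptor genes, which were those of Cxcl1, Cxcl2, Cxcl3 and Ccr3. Ccr3 did not fall, with log2 fold changes of 0.64 to 0.98 when 1 library was left out. In the list of NF-kB subunits and feedback, the letters occurred in 1 of 19 windows. The CRE core TGACG occurred in 32.1% of all windows and in 10 of 21 windows of immediate early and stress genes (47.6%). It was in 31.4% of the windows of all genes that fell and in 27.1% of those that fell more than 8-fold. The heat shock core GAANNTTC was in 5.73% of all windows and in those of Hspa1a, Hspa1b, Jun and Fosl2 on the same list. The AP-1 letters TGANTCA were in 4.94% of all windows, in 20 of the 166 windows of genes that fell more than 8-fold and in 5 of the 87 windows of genes that rose more than 8-fold. The AP-1 letters were in 0 of 21 windows of immediate early and stress genes. No test was made of these shares, and a match is a description of letters.

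NF-kB subunits and the genes of its feedback, which the factor itself induces, followed the same direction. In this list 15 of 23 were lower and 1 higher (median -1.76), against 22.2% and 20.4% of all genes. Pim1, a survival kinase gene, fell from 2728, 4073 and 3826 RPM to 392, 201 and 198 RPM, and the inhibitor gene Nfkbid fell from 304 to 626 RPM to 30.6, 38.4 and 31.6 RPM. Plaur, the urokinase receptor gene, fell by 4.30 on the log2 scale, and Ptgs2, the inducible cyclooxygenase gene, had a change of -4.74. The gene that rose was Bcl3, a nuclear member of the inhibitor family, from 48.5 to 57.3 RPM to 128, 132 and 87.5 RPM.

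Chemokines and their receptors were lower in 19 of 27 genes and higher in 1 (median -3.14, with 22 of 25 lower without replicate 1). Among all genes, 22.2% were lower and 20.4% higher. The neutrophil attractant Cxcl2 fell from 218, 505 and 506 RPM to 2.54, 0.389 and 0.306 RPM (-7.71 ± 0.47, adjusted p = 2.2e-05 by limma). Ccl22, Ccl17 and Ccl24, ligands that draw T cells and eosinophils, fell, with changes of -5.96 to -4.68, and the receptor gene Ccr1 fell from 53.2 to 94.1 RPM to 5.08, 0.233 and 0.459 RPM. Cxcl9, an attractant for T cells induced by interferon-gamma, had 1880, 127 and 386 RPM against 315 to 797 RPM and did not pass the test.

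Inflammatory cytokine genes fell in 9 of 16 cases and rose in 1 (median -0.89), against 22.2% and 20.4% of all genes. Without wild-type replicate 1, 2 or 3 in turn, when 12 of these genes were tested, 4, 3 and 3 fell, with medians of -0.77, -0.50 and -0.46. Osm, which encodes oncostatin M, fell from 30.7, 50.5 and 66.0 RPM to 1.39, 0.623 and 1.07 RPM, and Lif, a cytokine of the same family, fell from 17.5 to 42.8 RPM to at most 0.078 RPM. Tnf, Il6 and Ifnb1 were low in both genotypes and lower in Rnaset2-/- cells, with 0.995 to 4.46, 0.077 to 0.623 and 0.077 to 0.231 RPM against 11.4 to 14.2, 3.64 to 9.76 and 4.14 to 18.8 RPM. Il1b, at 849, 1783 and 1738 RPM against 986, 1179 and 1566 RPM, overlapped between genotypes. In the list of 9 genes of the IL-10 pathway, Il10rb rose from 241 to 304 RPM to 789, 797 and 1032 RPM and Bcl3 rose, and none fell. Il10 itself had 46.7, 41.1 and 48.8 RPM against 14.7, 46.1 and 56.4 RPM (0.37 ± 0.45, adjusted p = 0.54 by limma).

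Interferon-stimulated genes were split. Of 30 tested, 5 rose (3 without Rnaset2-/- replicate 2) and 9 fell (median -0.12), against 20.4% and 22.2% of all genes. Ifit2, which binds foreign RNA, rose from 4.97 to 5.71 RPM to 17.9, 20.2 and 19.6 RPM, whereas the antiviral GTPase genes Mx1 and Mx2 fell by 1.87 and 1.68 on the log2 scale. Among 15 inflammasome genes, 7 fell and 3 rose, beside the same shares of all genes. The sensor genes Nlrp3 and Aim2 fell from 106 to 134 RPM to 38.0, 23.2 and 14.3 RPM and from 70.7 to 138 RPM to 37.0, 34.2 and 24.5 RPM, while the adaptor gene Pycard rose from 43.3 to 50.3 RPM to 130, 185 and 156 RPM and the substrate gene Il18 from 32.8 to 35.8 RPM to 154, 87.5 and 106 RPM. Genes of alternative activation fell in 9 of 16 cases and rose in 2, with a median of -2.48, or -2.60 with the genes at 0 in one genotype taken at the floor. Without wild-type replicate 1, 2 or 3 in turn, 5 of 12 tested genes of this list fell each time, with medians of -1.18, -1.16 and -1.23. Besides Retnla, the lipoxygenase gene Alox15 fell from 69.8, 98.6 and 197 RPM to 0.539, 0 and 0 RPM, and Arg1, which encodes arginase-1, fell from 14.5 to 25.5 RPM to 3.54, 0.623 and 0.766 RPM.

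Genes of MHC class II presentation differed between the Rnaset2-/- libraries. Of 15 tested genes, 8 fell and 0 rose (median -2.23), against 22.2% and 20.4% of all genes, and 12 fell without replicate 1. Without any other 1 library, 4 of 15 fell, as they did in edgeR, in DESeq2 and with no filter on low values. H2-Aa had 3615, 4801 and 4277 RPM in wild-type cells and 2956, 120 and 177 RPM in Rnaset2-/- cells (-3.44 ± 1.03, adjusted p = 0.027 by limma), and it lost the call in edgeR (adjusted p = 0.16) and without any 1 library other than Rnaset2-/- replicate 1. Cd74, which encodes the invariant chain, had 14318, 21424 and 19698 RPM in wild-type cells and 17546, 583 and 757 RPM in Rnaset2-/- cells, so that the genotypes overlapped in replicate 1 although the gene passed the test (-3.24 ± 1.13, adjusted p = 0.046 by limma). Its call was lost in edgeR (-1.63, adjusted p = 0.29), with no filter (adjusted p = 0.11) and without any 1 library other than Rnaset2-/- replicate 1. H2-Oa, a chain of the peptide-loading modulator, had 103 to 128 RPM against 17.3, 2.18 and 8.12 RPM and did not overlap.

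Among Fc receptors, their kinases and the inhibitory receptor gene Cd72, 6 of 11 tested genes rose and 2 fell (median 1.76). The shares of all genes were 20.4% and 22.2%. Cd72 rose from 200, 184 and 180 RPM to 771, 1986 and 1726 RPM (2.83 ± 0.33, adjusted p = 0.00035 by limma). The kinase genes Syk and Lyn, which act below these receptors, rose from 133 to 158 RPM to 723, 742 and 783 RPM and from 24.2 to 82.4 RPM to 274, 370 and 238 RPM. Fcgr2b, the inhibitory IgG receptor gene, fell from 57.4 to 61.7 RPM to 27.0, 3.35 and 4.36 RPM. Of 9 formyl peptide receptor and Cd300 genes, 4 rose and 1 fell. Fpr1, a receptor for bacterial formyl peptides, rose from 19.96 to 23.4 RPM to 396, 325 and 264 RPM (3.80 ± 0.18), and Cd300lf, a lipid-binding inhibitory receptor gene, rose from 55.6 to 79.0 RPM to 354, 558 and 561 RPM.

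C-type lectin receptors moved both ways, with 7 of 22 higher and 9 lower (5 of 20 lower without wild-type replicate 3). The shares among all genes were 20.4% and 22.2%. Cd209a, the DC-SIGN homolog, fell from 159, 124 and 102 RPM to 0.077, 0.545 and 0.536 RPM, and the fungal sensor genes Clec4d and Clec4e fell by 3.10 and 2.84 on the log2 scale. Of 20 integrins and adhesion genes, 6 rose and 5 fell (3 without wild-type replicate 2 or 3), against 20.4% and 22.2% of all genes. Itga9 rose from 9.27 to 15.4 RPM to 317, 426 and 281 RPM (4.62 ± 0.23, adjusted p = 1.2e-05 by limma), Itgad rose from under 1 RPM to 7.31, 28.3 and 28.1 RPM, and Pecam1, which encodes CD31, rose from 148 to 153 RPM to 996, 1838 and 3016 RPM. Itga4, a subunit of the VLA-4 integrin of monocytes, fell from 868.3 to 1277 RPM to 259, 189 and 169 RPM. Of 9 receptors for colony-stimulating and stem cell factors, 2 rose and 2 fell, shares near those of all genes. Csf2rb, the shared chain of the GM-CSF receptor, rose by 1.81 ± 0.29 and Flt3, a receptor of dendritic cell precursors, fell from 18.1 to 27.6 RPM to under 1 RPM. Csf1r, the receptor for the macrophage growth factor, had 1651, 1291 and 665 RPM against 923 to 977 RPM and overlapped.

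The count of cell cycle genes that rose depended on the libraries used. Of 23 genes of mitosis, 8 rose and 0 fell (median 0.53), and of 22 genes of DNA replication, 5 rose and 1 fell (median 0.51), against 20.4% of all genes that rose. Leaving out 1 library at a time gave 3 to 15 of 23 and 1 to 11 of 22, with the highest counts without Rnaset2-/- replicate 3 and the lowest without wild-type replicate 3 (3 of 23 also without wild-type replicate 1). With all 29 libraries in 1 fit, 2 of 23 and 3 of 22 rose. Cdk1, the kinase of mitotic entry, had 49.9, 32.7 and 19.2 RPM against 8.61 to 12.7 RPM, with replicate 1 the highest. The respiratory chain had 19 of 63 genes higher and 7 lower (median 0.33), with 2 lower without wild-type replicate 3, 3 without Rnaset2-/- replicate 2 and 4 without Rnaset2-/- replicate 3. Sdhb rose from 47.1 to 63.9 RPM to 271, 185 and 131 RPM and Ndufv3 fell from 57.3 to 67.5 RPM to 18.5, 13.2 and 18.0 RPM. Of 17 ribosomal protein genes, 3 rose and 6 fell (median -0.12).

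Markers of cells other than macrophages moved with genotype as well. A marker near 0 in 1 genotype was tested only where it reached 1 RPM in all 3 libraries of the other, which favours 1 direction. Counts of tested markers are therefore no evidence of direction, whereas the sums cover all autosomal markers in the table. Tested were 6 of 9 B cell, 8 of 10 T cell, 6 of 8 erythroid and 4 of 6 cholangiocyte markers. Among all genes, 20.4% rose and 22.2% fell. B cell markers rose in 6 of 6 tested genes, and the summed level of the whole list was 120 to 415 RPM in Rnaset2-/- libraries against 27.7 to 31.4 RPM in wild-type libraries. Cd79b, a chain of the B cell receptor complex, was at 79.7, 190 and 328 RPM. T cell markers rose in 7 of 8 (2 of 3 tested without any 1 Rnaset2-/- library), with sums of 47.9 to 157 against 18.3 to 34.4 RPM, and Cd3e had 25.7, 10.9 and 15.1 RPM. Erythroid markers rose in 5 of 6, while the defining factor gene Klf1 was at 0, 0 and 0.153 RPM. Endothelial markers rose in 4 of 14 and fell in 2, with sums of 1878 to 4965 against 473 to 762 RPM. Without wild-type replicate 1, without wild-type replicate 2 or without Rnaset2-/- replicate 3, 1 of 14 rose (medians 0.06, 0.74 and -0.32 against 0.55). Replicate 3 was far above the others for some of these, with Clec4g at 48.1, 84.8 and 656 RPM and Ptprb at 13.01, 34.3 and 206 RPM, and neither passed the test. Markers of cholangiocytes fell in 4 of 4, with sums of 2.65 to 3.83 against 70.0 to 150 RPM. Of 8 tested hepatocyte markers, Alb fell, from 44.3 to 87.1 RPM to 48.3, 8.09 and 20.3 RPM with overlap of 1 library and a call that edgeR did not give (adjusted p = 0.063), and of 6 tested neutrophil markers Prtn3, Retnlg and Mmp9 fell (1 fell without any 1 wild-type library, when 3 or 4 were tested). Mpo, Elane and Cebpe were too low to be tested, at 0 in every Rnaset2-/- library and at no more than 0.089 RPM in wild-type libraries. Markers of conventional dendritic cells fell in 5 of 10 and rose in 3 (median -1.41), with sums of 1693 to 3715 against 1401 to 1973 RPM. Those that fell were Flt3, Zbtb46, Cd209a, Ccr7 and Dpp4, and those that rose were Xcr1, Batf3 and Sirpa. Without wild-type replicate 1, 2 or 3 in turn, 3, 2 and 3 of 8 tested fell, with medians of -0.31, -0.50 and -0.29. Of the lists with few tested genes, NK cell markers rose in 2 and fell in 2 of 6, plasma cell and plasmacytoid dendritic cell markers rose in 2 of 4 each, platelet markers rose in 2 and fell in 1 of 3, eosinophil markers fell in 1 of 2, and those of mast cells (1 tested) and stellate cells (3 tested) did not pass. The part of other cells in the results above was not tested. In bulk RNA, fewer cells of a type and less RNA for each cell cannot be told apart.

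The genotype effect was then compared between the liver and the spleen, within Ly6C-low macrophages. The splenic Ly6C-low macrophages were 4 Rnaset2-/- and 3 wild-type libraries, and the difference of effects (liver minus spleen) was tested as an interaction in limma. Of 10871 tested genes, 1330 (12.2%) had a higher effect in the liver and 1590 (14.6%) a lower effect. The hepatic Rnaset2-/- libraries carried Y-linked reads and no Xist, and 3 of the 4 splenic ones had 611 to 744 RPM of Xist, so that organ and sex cannot be told apart in this comparison. Cxcl2, Neat1, Fosb, Alox15 and Trem1 fell in the liver and did not pass the test in the spleen. Fosb was at 148 RPM in Rnaset2-/- and 170 RPM in wild-type splenic cells, and its difference of effects was -7.53 (adjusted p = 1.1e-07 by limma). Neat1 was at 375 and 379 RPM in the spleen, with a difference of -7.60. Of the 24 immediate early and stress genes, 23 had a lower effect in the liver. Livers and spleens were dissociated by different methods, and the part of this in the difference was not tested. Among the named genes, C6, Pcolce2, Cd5l, Slc16a9 and Lipg had the highest effects in the liver over the spleen, with differences of 4.21 to 5.11. Lipg and Cd5l also rose in the spleen, from 0.509 to 11.4 RPM and from 30.2 to 207 RPM.

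Several genes differed in direction or leaned to the spleen. Osm and Fcgr2b fell in the liver and rose in the spleen, with differences of -6.10 and -4.42, and Hp, the haptoglobin gene, did the same with -3.94. Il18 rose in the liver and fell in the spleen, with a difference of 2.53. Cd72 rose in both organs, and more in the spleen, from 13.6 to 425 RPM (difference -1.98 ± 0.41, adjusted p = 0.0034 by limma). Il10 rose in the spleen from 5.90 to 115 RPM, and its effect differed between the organs (-3.58). Il1b rose in the spleen from 325 to 1651 RPM and differed likewise (-2.18). Fcgr4, Fcrl5 and Pecam1 rose in both organs.

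**Figure D5:**
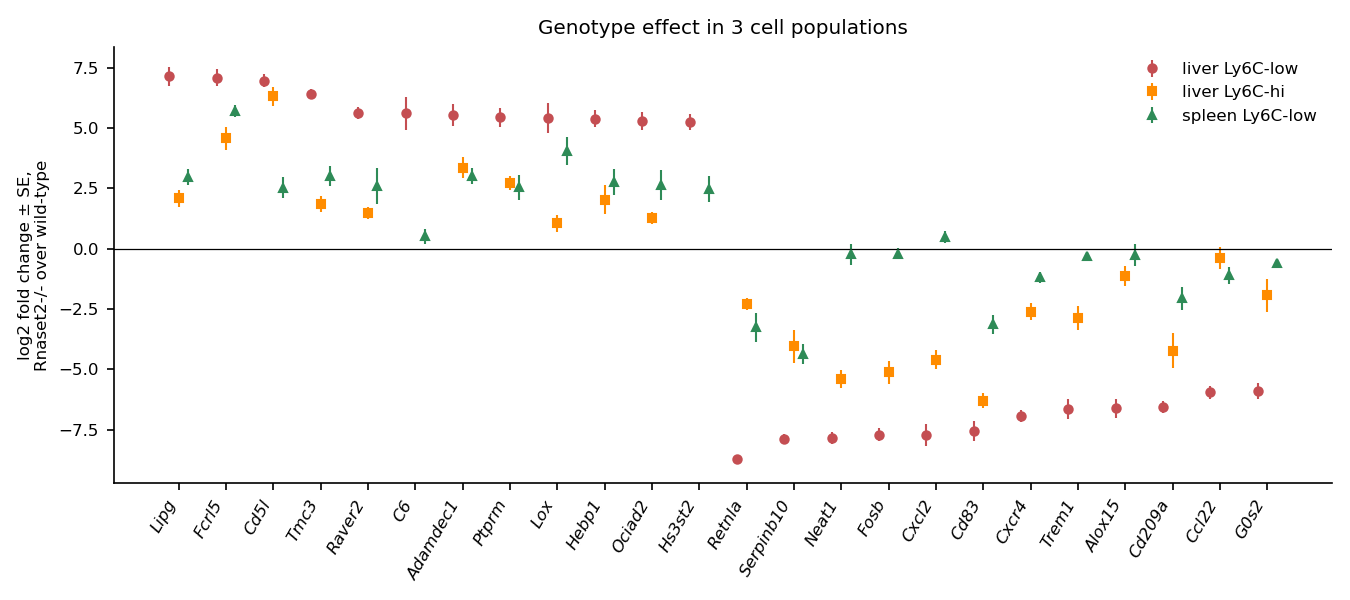
The log2 fold change of Rnaset2-/- over wild-type, ± SE, is plotted for the 24 genes with the largest changes in hepatic Ly6C-low macrophages (red circles), with hepatic Ly6C-hi (orange squares) and splenic Ly6C-low macrophages (green triangles). C6 and Hs3st2 were too low to be tested in Ly6C-hi cells. Neat1, Fosb, Cxcl2, Trem1 and Alox15 are near 0 in the spleen, while Fcrl5, Retnla and Serpinb10 move in one direction in all 3 populations.

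The Ly6C-hi macrophages of the liver, with 3 libraries of each genotype, gave the second comparison. Of 12114 tested genes, 628 (5.18%) had a higher genotype effect in Ly6C-low than in Ly6C-hi cells and 637 (5.26%) a lower one. Without scaling factors the same counts were 331 and 845, with a median of -0.26 over all differences. Leaving out 1 library at a time gave 317 to 1081 higher and 351 to 1254 lower, with the highest counts without Ly6C-hi Rnaset2-/- replicate 1 and the lowest without Ly6C-low wild-type replicate 3, so the size of this comparison is uncertain. The named genes with the highest effect in Ly6C-low cells were Lipg, Tmc3, Hs3st2, Lox, C6, Raver2 and Lpl, with differences of 4.15 to 5.07. Lpl had 249 RPM in Rnaset2-/- and 306 RPM in wild-type Ly6C-hi cells. Nr1h3 and Rxra were also higher in effect in Ly6C-low cells (3.57 and 2.84), whereas Cd5l rose in both subsets and its effects were not found to differ (0.67 ± 0.49, adjusted p = 0.44 by limma). The lowest were Retnla, H2-Oa, Ccl22, Alox15 and Jag1, with differences of -6.42 to -4.52, and H2-Oa and Jag1 fell in Ly6C-low and rose in Ly6C-hi cells. Egr1 and Fos fell in both subsets, and their effects were not found to differ.

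The splenic Ly6C-low and the hepatic Ly6C-hi comparisons shared no library with that of hepatic Ly6C-low cells, so their calls were set side by side. Of 9600 genes tested in both organs, 378 (3.94%) rose in the spleen, and 245 of these also rose in the liver, which is 64.8% of the splenic and 12.3% of the hepatic genes. Of the 394 (4.1%) that fell in the spleen, 231 fell in the liver, which is 58.6% of the splenic and 10.9% of the hepatic genes. In opposite directions were 27 genes of those that rose in the liver and 27 of those that fell. Of 10049 genes tested in both hepatic subsets, 1495 (14.9%) rose and 1508 (15%) fell in Ly6C-hi cells, and 769 and 965 of these moved likewise in Ly6C-low cells, or 37.8% and 44.1% of the Ly6C-low genes. The hepatic subsets carry the same imbalance of Xist and Y-linked reads between genotypes, and the labels do not say whether they came from the same animals. Fcrl5, Lipg, Cd5l, Tmc3, Adamdec1, Cd38, Itga9, Pecam1, Cd72, Fcgr4 and Fpr1 rose, and Retnla, Serpinb10, Cd83, Cxcr4, Cd209a, Runx3 and Nlrp3 fell, in all 3 populations.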

How the data were processed

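RNA of sorted cells was amplified by the authors with the Ion AmpliSeq Transcriptome Mouse kit, sequenced on the Ion Proton and summarised with the AmpliSeqRNA plug-in, and the deposited values are RPM, reads scaled to a total of 1000000 in each library, against mm10. No column was left unused. RPM values of the 6 hepatic Ly6C-low libraries were divided by relative log expression factors, 1 RPM was added, and log2 values were tested with limma 3.58.1 in R 4.3.3 (two-sided, trend fitted, Benjamini-Hochberg over all 10808 tested genes). A gene was called at more than 1.5-fold and an adjusted p below 0.05. The genotype by organ fit used 13 libraries and the genotype by subset fit 12. An exact permutation test of 3 against 3 cannot go below p = 0.1. Whole reads, recovered from the RPM steps within 0.1 read, were tested with edgeR 4.0.16 and DESeq2 1.42.0 as alternatives, and other filters, scaling, added values, left-out libraries and a replicate block were tried. The fits were tested on simulated data.

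The comparison and the gene lists were chosen with earlier results of these data known. Named genes were the 12 that rose and 12 that fell most, among called genes above a minimum level whose libraries did not overlap. Up to 6 called and 2 uncalled genes of each list, genes the study names and defining cell type markers were also named. Others, such as the gate genes and promoter matches, were named after their values were seen. Chromosomes came from GENCODE vM21 and RefSeq, and 1197 genes matched neither. Promoter windows are RefSeq sequences of GRCm38.p6. Some genes are not reported here.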

Additional observations from a re-analysis of the deposited data

Results flagged for a closer look

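The genotype effect differed by limma's interaction test between liver and spleen (liver minus spleen, log2) for Cxcl2 (-8.21), Neat1 (-7.60), Fosb (-7.53) and Alox15 (-6.39), which were the lowest of the named genes. The highest were C6 (5.11), Pcolce2 (4.87), Cd5l (4.46) and Slc16a9 (4.39). Osm (-6.10), Fcgr2b (-4.42) and Hp (-3.94) fell in the liver and rose in the spleen, and Il18 (2.53) did the reverse. Between the hepatic subsets (Ly6C-low minus Ly6C-hi), the lowest differences were those of Retnla (-6.42), H2-Oa (-5.69), Ccl22 (-5.55) and Alox15 (-5.48), and the highest those of Lipg (5.07), Tmc3 (4.58), Hs3st2 (4.39) and Lox (4.38). Hp (-3.39) and Jag1 (-4.52) fell in Ly6C-low and rose in Ly6C-hi cells.

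Among the 4 Kupffer cell libraries used as a reference, 1 library lay far below the other three for Cd5l, at 2098 RPM, and 1 for Timd4, at 166 RPM. Chance marks about 1 in 20 groups in this way.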

How the results depend on the processing

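The counts of genes that rose and fell in hepatic Ly6C-low macrophages stayed within 1.5 times of 2125 and 2313 under every alternative but 1. Leaving out 1 library at a time gave 1529 to 2038 and 1449 to 2303, with the lowest without wild-type replicate 3. For liver against spleen, leaving out 1 library gave 979 to 1497 higher and 1087 to 1799 lower. For Ly6C-low against Ly6C-hi it gave 317 to 1081 higher and 351 to 1254 lower, unscaled RPM gave 331 higher, and DESeq2 gave 976 lower; the cause was not tested. Hepatic Ly6C-low libraries with the same replicate number did not deviate together across genotypes (r = -0.02, -0.19 and 0.13). The numbers were therefore not taken to pair the genotypes. Whether they pair subsets or organs was not tested, and the main interaction fits treated all libraries as unpaired. With a replicate block, 1924 genes rose and 2109 fell, the organ comparison gave 1098 higher and 1434 lower, and the subset comparison 568 and 751.

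Of 174 named genes, 145 kept direction and side of the threshold under every alternative in which they were tested. Another 14 lost a call under at least 1. Abca1, Marco, C3 and Psap gained a call under at least 1 alternative. The filter of 3 libraries also applied with 1 library left out. Genes at 1 RPM or more in only 1 genotype, such as Retnla, Lipg and Lif, were therefore not tested without a library of that genotype. Counts without 1 library cover fewer genes. No called gene turned. Genes short of the threshold changed sign when 1 library was left out, with ranges of -0.024 to 0.46 for Bst2, -0.71 to 0.97 for Folr2, -0.031 to 0.38 for Mylip, -0.21 to 0.17 for Spi1, -0.28 to 0.092 for Ctss, -1.28 to 0.70 for Cxcl9, -0.050 to 0.50 for Il1b, -0.23 to 0.74 for Il10, -0.060 to 0.57 for Csf1r, -0.70 to 1.20 for Clec4g and -0.44 to 1.53 for Ptprb. Cxcl9 was also above 0 in edgeR (0.42) and DESeq2 (0.44). Clec4f lost its call without wild-type replicate 2, Cd163 without wild-type replicate 1 or 2, Lrp1 without wild-type replicate 3, Fosl2 without wild-type replicate 2 or 3, Clec4e without Rnaset2-/- replicate 2 or wild-type replicate 2 or 3, and Adgre1 without any 1 library but Rnaset2-/- replicate 2. Dpp4 lost its call without Rnaset2-/- replicate 2 or wild-type replicate 2 and Sirpa without Rnaset2-/- replicate 2 or wild-type replicate 1 or 3. Cd74 and H2-Aa lost theirs without any 1 library but Rnaset2-/- replicate 1. In edgeR, the calls of Cd163 (adjusted p = 0.064), Clec4e (0.084), C5ar1, Dpp4 (0.065), H2-Aa, Cd74 and Alb were lost, in DESeq2 those of C5ar1, Dpp4 (0.077) and H2-Aa, with all 29 libraries that of Prtn3 (0.081), and with no filter those of Ctsb (0.052), H2-Aa (0.059), Sirpa (0.068), Cd74 and Alb.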
